A study of Mus musculus with 32 samples.

Results

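The native parathyroid cells described here are the 8 control libraries of a series of 32 mouse parathyroid RNA-seq libraries, 4 from each of 2 experiments. All came from adult mice of the strain C57BL/6-Pthtm1(P2A-tdTomato)/+, which carry a red fluorescent reporter in 1 of the Pth alleles. The mice of experiment 1 were males aged 8 weeks and those of experiment 2 were females aged 11 weeks, and no treatment is named for either. For each library 10 to 20 red cells were picked by micromanipulator, and full-length cDNA was made with the SMART-Seq HT kit. The other 24 libraries hold cells derived from embryonic stem cells and are not analysed here. Sex, age and sequencing depth go together with the experiment, so the experiments are set side by side and not contrasted. Abundance is in TPM, the share of transcripts scaled to a fixed total, which corrects for transcript length, so that genes of the same library can be compared. A gene was kept when its mean reached 10 TPM in both experiments, which 5378 of 35458 genes did.

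The chief cell of the parathyroid gland secretes parathyroid hormone, which raises blood calcium by acting on bone and kidney. Secretion is held back when blood calcium is high, through the calcium-sensing receptor Casr and its G proteins. Calcitriol, acting through the vitamin D receptor, and FGF23, acting through an FGF receptor with the co-receptor klotho, also lower hormone output. The gland forms from the pharyngeal pouches under transcription factors that include Gcm2 and Gata3.

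The libraries carried the defining markers of their label. Pth, Chga, Casr and Gcm2 were all kept, and the lowest value of any of them in any library was 129 TPM, for Casr. The thyroid genes Tshr, Slc5a5 and Pax8 were at 0 in every library. The cells were picked on a Pth reporter, so the presence of Pth follows from the choice of cells.

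Pth and Chga together supplied 35.8% ± 0.94 of all TPM (SD, n = 8), with a range of 34.6% to 37.5%. Pth, which encodes the hormone, stood in experiment 1 at 246994, 243787, 237031 and 233172 TPM in replicates 1 to 4, and in experiment 2 at 220022, 231914, 221328 and 232856. The lowest and the highest library differed 1.12-fold. Pth had the smallest spread of the kept genes ranked for it, with an SD of log2(TPM + 1) within experiments of 0.04. Genes with symbols of Gm and a number, or ending in Rik, were left out of that ranking. Chga, which encodes chromogranin A, the main acidic protein of the secretory granules, stood at 117650, 119799, 113254 and 119179 TPM in experiment 1 and at 135075, 142995, 124280 and 128574 in experiment 2. Chga was below Pth in each of the 8 libraries, by 0.90 ± 0.15 on the log2(TPM + 1) scale (SD, n = 8). A 2-sided exact sign-flip permutation test of the within-library difference gave p = 0.00781, the smallest that 8 libraries allow. After Benjamini-Hochberg adjustment over 19 gene pairs it was 0.00928. The pairs were chosen with earlier results of these data known. Their p-values, here and below, therefore describe how constant an order was across libraries and are no independent support for it.

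In reads, without the correction for length, the order was the opposite. Chga took 21.0% of reads and Pth 9.58% on average over the 8 libraries. The Pth transcript is the shorter of the pair. Ordering these genes therefore needs the scale to be named.

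The 250 bases before the RefSeq transcription start of these genes are printed because their transcripts outnumber all others in the cells. The build is GRCm38.p6, at chr7:113388574-113388823 on the minus strand for Pth and at chr12:102554691-102554940 on the plus strand for Chga. The sequences run 5′ to 3′ and end at the base before the start. Capitals mark TATAAA and the 8-letter pattern TGACNTNA on either strand.
Pth: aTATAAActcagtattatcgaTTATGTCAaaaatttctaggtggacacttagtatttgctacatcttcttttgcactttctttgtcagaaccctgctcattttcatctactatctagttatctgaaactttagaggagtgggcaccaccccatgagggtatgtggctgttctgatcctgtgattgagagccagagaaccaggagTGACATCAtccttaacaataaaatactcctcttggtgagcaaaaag
Chga: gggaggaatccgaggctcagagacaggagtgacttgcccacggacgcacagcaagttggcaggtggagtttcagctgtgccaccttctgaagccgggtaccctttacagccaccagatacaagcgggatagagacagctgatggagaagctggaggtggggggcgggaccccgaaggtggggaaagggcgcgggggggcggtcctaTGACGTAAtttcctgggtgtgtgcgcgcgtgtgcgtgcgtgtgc

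Both upstream stretches hold a match to TGACNTNA, a loose form of the cAMP response element, close to the start. It spans 46 to 39 bases before the start in Pth and 44 to 37 bases before it in Chga. Pth has a further match on the other strand, 229 to 222 bases before the start, and its TATAAA lies 249 to 244 bases before it. The loose pattern was chosen after the sequences were seen, and it occurs on either strand in 14.1% of 32851 mouse promoter windows of this length. The strict form TGACGTCA occurs in 1.55% of them and in neither of these. TATAAA occurs in 7.59% of the windows. The GCM pattern ATGCGGGT, also searched, occurs in 0.207% of the windows and in neither of these sequences. A match is a string of letters and not a tested site.

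The remaining abundance fell off steeply from these genes. The 10 most abundant genes of a library held 42.8% ± 1.05 of TPM (SD, n = 8), the top 100 held 56.7% ± 1.01, and the top 1000 held 80.6% ± 0.90. Among the kept genes, 4 averaged at least 10000 TPM, 60 lay between 1000 and 10000, 1084 between 100 and 1000, and 4230 between 10 and 100. The kept genes carried 96.6% of TPM. By the types of the annotation used, they included 5298 protein-coding genes, 69 pseudogenes, 10 genes of noncoding types and 1 rRNA gene. These types are labels, and 6 of the 10, such as Cct6a and Tmem134, are labelled as processed transcripts. Of all protein-coding genes 24.4% were kept and 32.4% were at 0 TPM in every library. A further 863 genes reached 10 TPM in 1 experiment only, and 18262 genes had no read in any library. At the threshold, Angptl4 was just inside with 16.5 and 10.0 TPM in experiments 1 and 2, and Zfp512 was just outside with 9.99 and 12.0. Over protein-coding transcripts alone, counted after the data were seen, Angptl4 averaged 3.11 TPM and Zfp512 5.98, so that Angptl4 would not be kept.

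**Figure D1:**
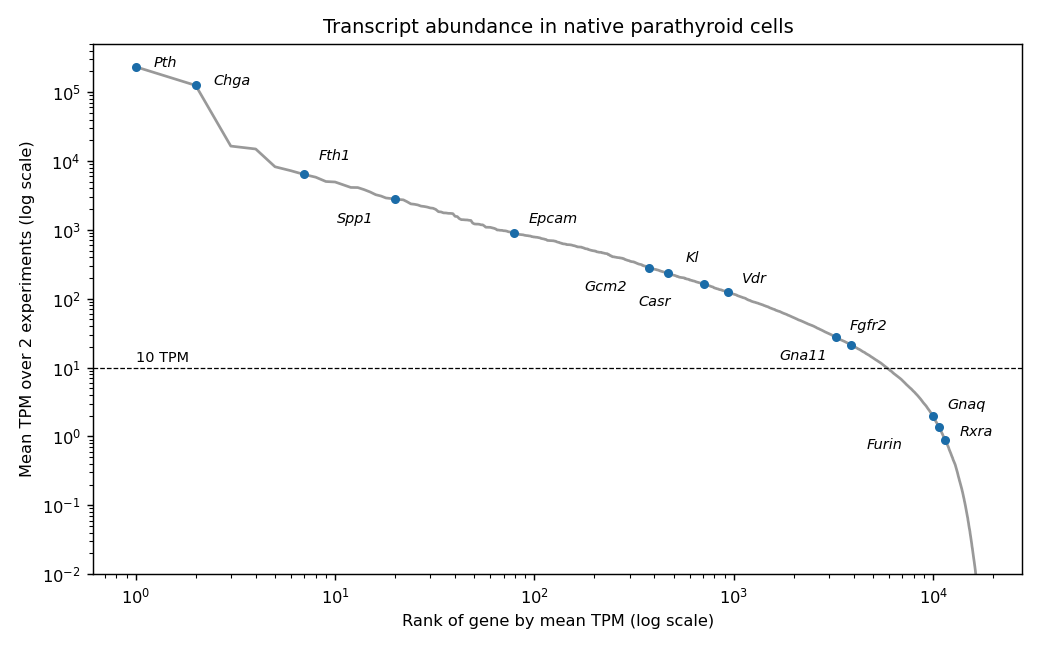
Mean TPM over both experiments against the rank of the gene, both on log scales, for all genes with reads. The grey line is the ranked mean, points mark named genes, and the dashed line is 10 TPM. Pth (233388 TPM) and Chga (125101 TPM) stand above all other genes, while Gnaq, Furin and Rxra lie below 10 TPM.

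Genes of the mitochondrial genome held 6.24% of TPM on average (range 4.95% to 7.29%), and the cytosolic ribosomal protein genes 4.51% (3.76% to 5.13%). With both groups left out, the gene that followed Pth and Chga was Fth1, the ferritin heavy chain that stores iron, at 6003 ± 484 TPM in experiment 1 and 6725 ± 503 in experiment 2 (SD, n = 4 each). Ly6e, a membrane protein of the Ly6 family, averaged 5031 TPM. S100a1 and S100a11, small calcium-binding proteins, averaged 4502 and 4124 TPM. Serpine2, a secreted inhibitor of serine proteases, averaged 3237 TPM, and Spink8, of the Kazal inhibitor family, 2210. Pla2g7, the secreted enzyme that breaks down platelet-activating factor, averaged 2299 TPM. Sparcl1, a secreted matrix protein, averaged 1979. Tspan6, a tetraspanin, and Itm2b, a membrane protein of the secretory pathway, averaged 2851 and 2555 TPM, of which protein-coding transcripts of Itm2b supplied 1366. Cox8a, Cox6c, Uqcr11, Atp5e and Ndufa1, nuclear genes for subunits of the respiratory chain and ATP synthase, each averaged between 1819 and 2725 TPM. Gm29216, an annotated pseudogene on chromosome 1, was listed at 5811 TPM. Reads of Gm29216, and of Fth1 and Akr1c13 (2381 TPM), can be shared with near-identical copies, so their levels are uncertain.

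Spp1, which encodes the secreted phosphoprotein osteopontin, was the third most abundant member of the hormone and granule list. It stood at 1756, 1876, 2559 and 2005 TPM in experiment 1 and at 2465, 3842, 2252 and 5545 in experiment 2. The 2 highest libraries were in experiment 2, replicates 4 and 2. Of 28 hormone and granule genes 6 were kept, or 21.4%, near the share of all protein-coding genes, and 14 had no read in any library. The other kept members were Nucb1 and Nucb2, calcium-binding nucleobindins, and Scg5, the chaperone 7B2. Nucb1 averaged 178 ± 14.5 and 194 ± 33.3 TPM (SD, n = 4 in each experiment), Scg5 92.1 ± 24.0 and 114 ± 19.7, and Nucb2 85.9 ± 37.1 and 88.6 ± 12.2. The granins Chgb, Scg2 and Vgf and the hormone-related gene Pthlh had no read in any of the 8 libraries. For Chgb, a floor of 3 reads corresponds to 0.0347 to 0.111 TPM, depending on the library. Chgb was thus below the detection floor where its fellow granin Chga averaged 125101 TPM. Scg3 had 1 read in all. Edn3, a vasoactive peptide, was detected in all 8 libraries without being kept, at 2.23 to 27.2 TPM, with a mean of 9.03 TPM, of which 4.62 came from protein-coding transcripts.

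Prohormones are cut by signal peptidase, then by proprotein convertases, and are trimmed by carboxypeptidases. Of 21 processing genes 10 were kept, or 47.6% against 24.4% of all protein-coding genes. The signal peptidase subunits Spcs1, Spcs2, Sec11c, Sec11a and Spcs3 were all kept, from 931 and 843 TPM for Spcs1 in experiments 1 and 2 to 17.4 and 14.4 for Spcs3. Qpct, glutaminyl-peptide cyclotransferase, followed with 502 ± 19.5 and 438 ± 43.1 TPM (SD, n = 4 each). Cpe, the carboxypeptidase of secretory granules, stood at 139, 116, 108 and 83.7 TPM in experiment 1 and at 129, 117, 145 and 119 in experiment 2. Its relative Cpd averaged 0.724 TPM and was lower in all 8 libraries, with a log2(TPM + 1) difference of 6.15 ± 0.32 (SD, n = 8). The lysosomal proteases Ctsb, Ctsl and Ctsh averaged 247, 183 and 129 TPM, and Ctsb 94.5 over its protein-coding transcripts alone.

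No proprotein convertase was kept. Furin and PC7, the product of Pcsk7, are the convertases known to cut proparathyroid hormone. Furin stood at 1.63, 1.27, 0.484 and 1.68 TPM in experiment 1 and at 0.990, 1.35, 1.81 and 1.75 in experiment 2, from 1001 reads in all. Pcsk7 stood at 8.89, 6.26, 8.45 and 12.2 TPM and at 9.59, 12.5, 8.68 and 5.21. Pcsk7 exceeded Furin in each of the 8 libraries, by 2.06 ± 0.51 on the log2(TPM + 1) scale (SD, n = 8, exact sign-flip p = 0.00781). The exons of Pcsk7 overlap those of Rnf214 on the other strand, and reads of such a pair cannot be told apart without strand. Pcsk4 was the highest convertase by its mean, with 14.0 ± 8.39 and 8.52 ± 4.32 TPM (SD, n = 4 each), but its protein-coding transcripts alone averaged 0.536 TPM. Pcsk1, the granule convertase of many endocrine cells, had no read in any library, and Pcsk2 had 8 reads in all. Scg5 encodes a chaperone of the Pcsk2 product and was nonetheless kept.

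Of 43 vesicle and exocytosis genes 12 were kept, or 27.9%, near the share of all protein-coding genes, and 9 had no read. Vamp8, a vesicle SNARE of regulated secretion in epithelial cells, averaged 346 ± 49.9 and 344 ± 30.6 TPM (SD, n = 4 each). Stxbp2, the Munc18 protein of non-neuronal secretion, averaged 99.9 ± 8.88 and 135 ± 17.1. Sytl4, granuphilin, which docks granules at the plasma membrane, averaged 77.4 ± 20.2 and 95.9 ± 31.2. Vamp2, Stx4a, Syt5, Vamp3, Vamp4, Rab3a, Snap23, Stxbp3 and the vesicular monoamine transporter Slc18a1 were kept at lower means, from 50.3 TPM for Vamp2 to 15.3 for Slc18a1. Over protein-coding transcripts alone Slc18a1 averaged 8.61 TPM, below the threshold. The neuronal SNARE gene Snap25 and the synaptotagmins Syt1, Syt4, Syt7 and Syt13 had no read in any library. Snap23 stood at 20.4, 14.9, 18.3 and 14.3 TPM in experiment 1 and at 15.2, 22.4, 14.2 and 13.4 in experiment 2. It was therefore the only member of the SNAP25 family listed here that was kept, Snap29 averaging 3.38 TPM.

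**Figure D2:**
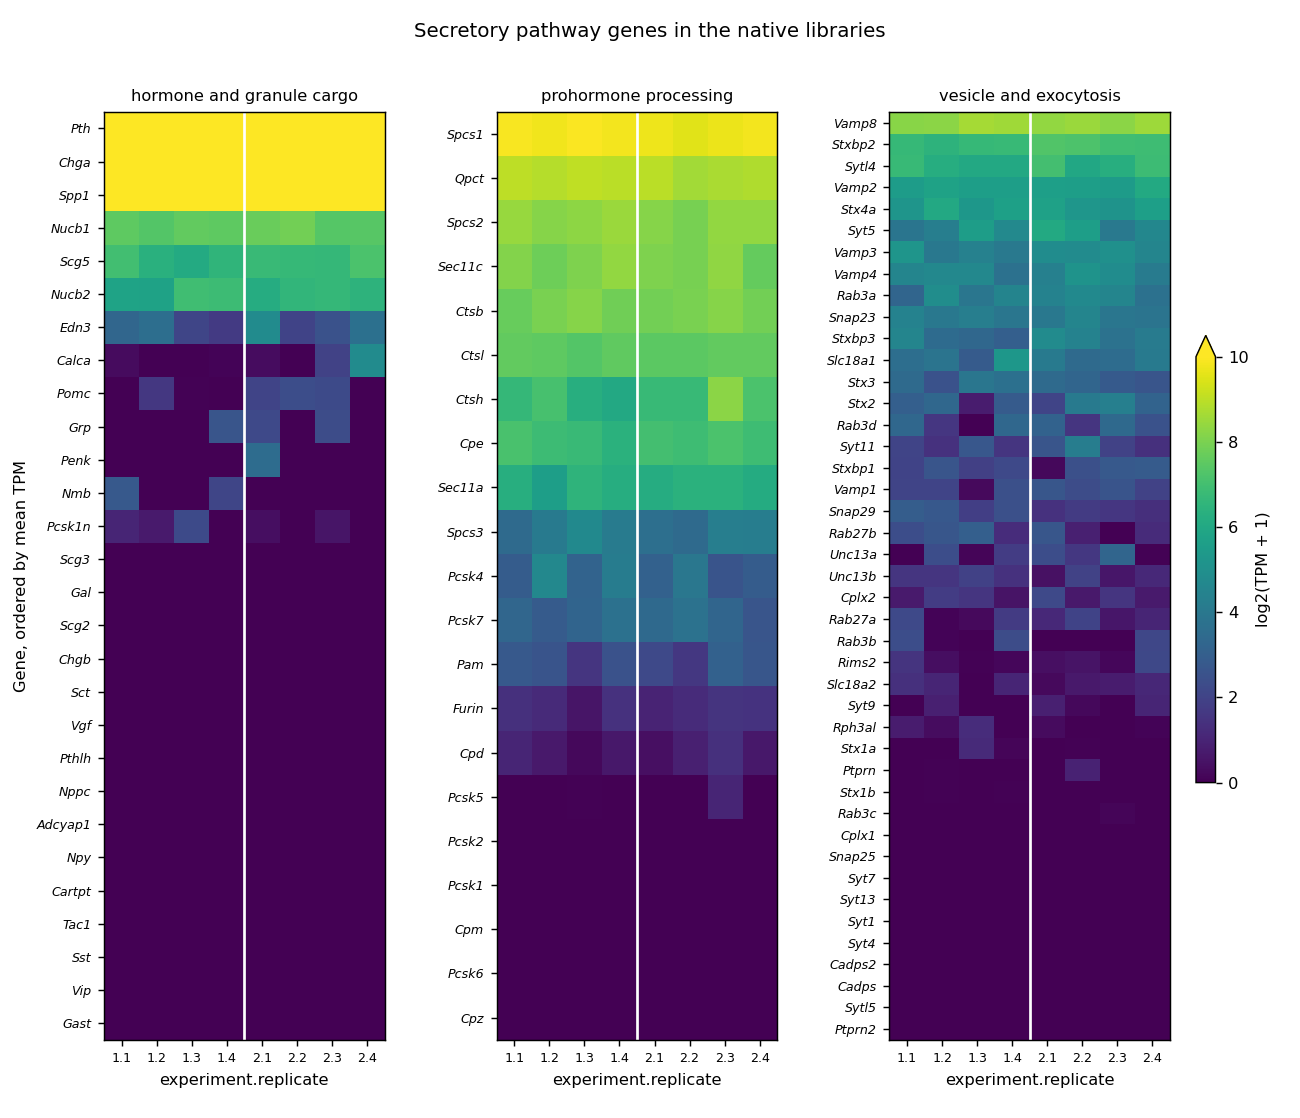
Heat map of log2(TPM + 1) for the hormone and granule, processing, and vesicle and exocytosis lists in the 8 libraries, labelled as experiment and replicate. The colour scale saturates at 10, so that Pth, Chga and Spp1 share the top colour. Dark rows at the bottom of each panel are genes at or near 0 in all 8 libraries, among them Chgb, Pcsk1 and Snap25.

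Casr encodes the receptor through which these cells read extracellular calcium. It stood at 129, 198, 142 and 152 TPM in experiment 1 and at 212, 146, 135 and 193 in experiment 2. The ranges of both experiments overlapped. Its protein-coding transcripts Casr-203 and Casr-201 took 55.7% ± 4.61 and 41.0% ± 5.05 of its TPM (SD, n = 8). The related receptor gene Gprc6a had no read, and Gabbr1, a subunit of the GABA-B receptor of the same receptor class, averaged 3.82 TPM. Casr exceeded Gabbr1 in all 8 libraries, by 5.27 ± 1.02 on the log2(TPM + 1) scale (SD, n = 8).

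Of 35 genes of calcium sensing and G protein signalling 9 were kept, or 25.7%, near the 24.4% of all protein-coding genes. Gnas, which encodes the stimulatory G protein alpha subunit, was the highest at 4187 ± 821 and 4033 ± 470 TPM (SD, n = 4 each). Of its 22 annotated transcripts, the largest shares fell to a processed transcript, Gnas-221, with 32.5% of the gene's TPM, and a protein-coding transcript, Gnas-208, with 27.1%. Its protein-coding transcripts together averaged 2214 TPM. Ap2s1, an adaptor subunit that takes part in uptake of the calcium-sensing receptor, averaged 199 ± 28.5 and 186 ± 38.3 TPM. Gnai2 and Gnai3, inhibitory alpha subunits, averaged 81.8 and 24.0 TPM, and Plcb1, the phospholipase that Gq-type subunits activate, averaged 23.3, or 12.4 over protein-coding transcripts.

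The receptor's Gq-type partners were unequal. Gna11 stood at 11.5, 24.2, 27.3 and 24.7 TPM in experiment 1 and at 12.6, 26.6, 21.2 and 21.0 in experiment 2. Gnaq stood at 2.27, 2.08, 1.24 and 1.57 TPM and at 1.96, 2.69, 1.60 and 2.54. The lowest Gna11 library was above the highest Gnaq library. The Gnaq minus Gna11 difference was -2.85 ± 0.57 on the log2(TPM + 1) scale (SD, n = 8, exact sign-flip p = 0.00781). Arrb2, a beta-arrestin, averaged 4.99 TPM (3.19 over protein-coding transcripts) and its relative Arrb1 0.150.

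Among 371 annotated G protein-coupled receptor genes 10 were kept, which is 2.70%, against 24.4% of all protein-coding genes. Adgrg2, an adhesion receptor, had a mean of 214 ± 24.4 and 214 ± 46.1 TPM (SD, n = 4 each), above the mean of Casr. Adgrg2 was above Casr in each of the 8 libraries, a comparison made after the values were seen and given without a test. Gprc5c, an orphan receptor, averaged 25.2 TPM. Gpr108, Gpr180, Gpr137, Gpr107 and Gpr89 were kept by name, with means of 72.6 to 15.9 TPM, and their standing as receptors is not settled. Over protein-coding transcripts alone, Gpr107 averaged 3.75 TPM and Gpr89 7.71. Gpr137 shares exon sequence with Bad on the other strand.

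Vitamin D, FGF23 and steroid receptor genes gave 8 kept members of 37, or 21.6%, near the 24.4% of all protein-coding genes. Kl, klotho, the co-receptor that lets FGF23 bind, stood at 222, 265, 271 and 208 TPM in experiment 1 and at 267, 219, 158 and 262 in experiment 2. Its paralog Klb had no read in any library. Of the FGF receptors, Fgfr2 was kept at 26.5 ± 11.3 and 28.8 ± 12.6 TPM (SD, n = 4 each), and its protein-coding transcripts averaged 17.1 TPM. Fgfr1, the receptor best known as the klotho partner, averaged 4.16 ± 3.04 and 4.87 ± 2.08, and was below Fgfr2 in all 8 libraries. Fgfr3 and Fgfr4 had no read.

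Vdr, the vitamin D receptor, stood at 133, 130, 109 and 160 TPM in experiment 1 and at 100, 131, 98.5 and 134 in experiment 2. It acts as a dimer with a retinoid X receptor. Rxrb was the kept one of these, at 19.7 ± 8.32 and 11.6 ± 4.46 TPM (SD, n = 4 each), while Rxra averaged 0.898 TPM and Rxrg had no read. Vdr exceeded Rxra in all 8 libraries, by 6.16 ± 0.83 on the log2(TPM + 1) scale (SD, n = 8). Cyp27b1 and Cyp24a1, the enzymes that make and break down calcitriol, averaged 0.153 and 0.00223 TPM. Nr3c1, the glucocorticoid receptor, was kept at 12.8 TPM, and the oestrogen receptor gene Esr1 averaged 0.355 TPM, with no read for Esr2.

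Gfra4, the receptor for the neurotrophic factor persephin, stood at 212, 325, 321 and 427 TPM in experiment 1 and at 239, 169, 226 and 327 in experiment 2. Ret, which carries the signal of this receptor family into the cell, had no read in any library. Most of the Gfra4 signal lay in transcripts annotated as retaining introns, Gfra4-208 with 66.5% ± 3.54 and Gfra4-207 with 22.4% ± 2.82 (SD, n = 8). The protein-coding transcript Gfra4-204 took 4.30% ± 1.24. Counted over protein-coding transcripts alone, Gfra4 averaged 31.0 TPM. Gfra2, the neurturin receptor, averaged 15.3 TPM.

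**Figure D3:**
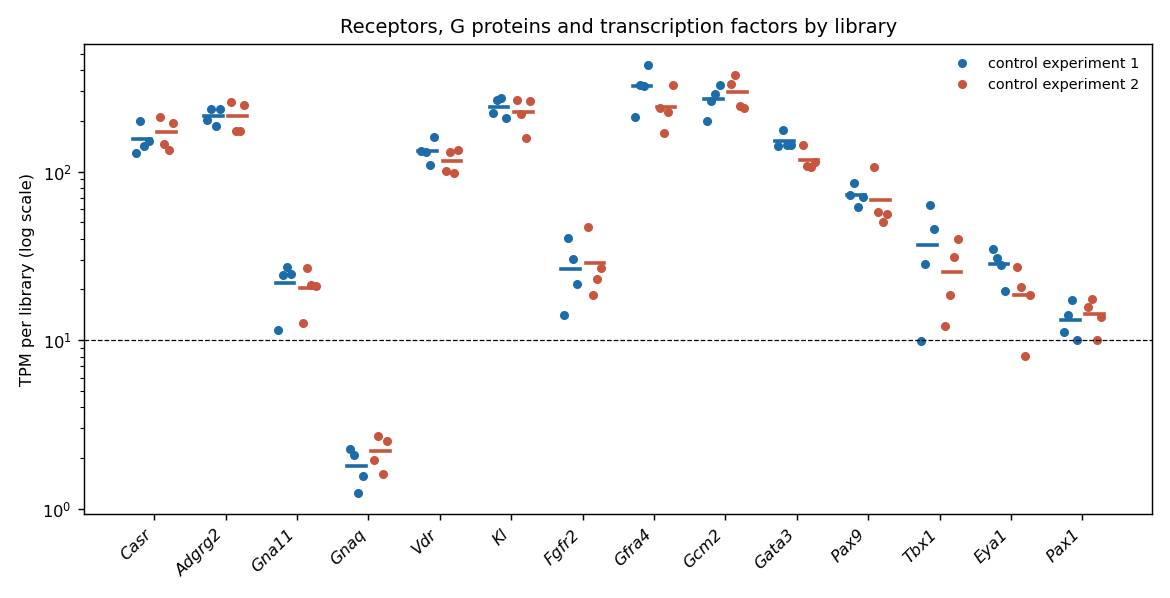
TPM in each library on a log scale for receptors, G proteins and transcription factors. Points are libraries, bars are means of 4 libraries, blue is control experiment 1, orange is control experiment 2, and the dashed line is 10 TPM. Gnaq lies between 1.24 and 2.69 TPM in all 8 libraries, below every point of Gna11.

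Of 630 transcription factor genes 77 were kept, or 12.2%, against 24.4% of all protein-coding genes. Gcm2, the master regulator of parathyroid fate, stood at 200, 261, 288 and 325 TPM in experiment 1 and at 331, 374, 244 and 239 in experiment 2. Gata3, which acts with Gcm2 on the Pth gene, stood at 141, 176, 143 and 145 TPM and at 143, 108, 107 and 113. Gata3 was below Gcm2 in all 8 libraries, by 1.06 ± 0.40 on the log2(TPM + 1) scale (SD, n = 8, exact sign-flip p = 0.00781). Gcm1, the placental paralog of Gcm2, averaged 0.323 TPM.

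Of 23 regulators of parathyroid development and growth 9 were kept, or 39.1%, against 24.4% of all protein-coding genes. Pax9, Tbx1, Eya1 and Pax1, which pattern the pharyngeal pouches in the embryo, averaged 70.1, 31.1, 23.4 and 13.7 TPM in these adult cells. Over protein-coding transcripts alone Pax9 averaged 20.3 TPM. Their spread differed. Pax1 lay between 10.0 and 17.5 TPM in all 8 libraries, while Tbx1 ranged from 9.93 to 63.1. Pax9 shares exon sequence with Slc25a21 on the other strand. Foxn1, Shh, Sox3 and Foxa2 had no read in any library. Men1, the menin gene whose loss causes parathyroid tumours, was kept at 13.4 ± 7.08 and 16.8 ± 9.11 TPM (SD, n = 4 each). Ccnd1, the cyclin D1 gene activated in some parathyroid adenomas, averaged 11.9 and 9.78 TPM and was not kept, and Cdc73, the parafibromin gene, averaged 4.15, of which 0.458 came from protein-coding transcripts.

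Among other transcription factors, Crem, of the cAMP-responsive CREB family, averaged 82.3 ± 21.7 and 148 ± 23.6 TPM (SD, n = 4 each). Xbp1 and Creb3, factors of the unfolded protein response and the secretory pathway, averaged 113 and 92.7 TPM. Dbp, an output gene of the circadian clock, averaged 123 ± 28.5 and 56.8 ± 9.49. The nuclear receptors Esrrg and Nr1h2 averaged 74.4 (20.1 over protein-coding transcripts) and 72.9, and the clock repressors Nr1d1 and Nr1d2 40.2 and 30.1. No collection time is given in the labels.

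Pth mRNA is stabilised or broken down by proteins that bind it. Of 8 such genes found by symbol 5 were kept, or 62.5%, against 24.4% of all protein-coding genes. Dynll1, a dynein light chain, averaged 108 TPM, Ncl (nucleolin) 78.9 (10.5 over protein-coding transcripts), and Elavl1, which encodes the RNA-binding protein HuR, 39.8. Hnrnpd, which encodes the stabilising factor AUF1, was uneven, at 1.97, 3.86, 1.97 and 7.21 TPM and at 4.86, 13.5, 0.653 and 18.1. Khsrp, the gene of the decay factor KSRP, averaged 0.278 TPM and was below Hnrnpd in all 8 libraries.

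Ion channel genes were kept less often than the 24.4% of all protein-coding genes. Of 94 potassium channel genes 4 were kept, or 4.26%. Kcng4, a modifier subunit, averaged 53.6 TPM and Kcnk1, a leak channel, 44.1. Kcna1, a voltage-gated channel, averaged 22.1 TPM and Kcnj2, an inward rectifier, 20.0. Kcnk1 was the steadiest, between 39.2 and 51.3 TPM. Of 81 genes of calcium channel and related cation channel families 7 were kept, or 8.64%, and no voltage-gated calcium channel was among them. Orai1, the pore of store-operated calcium entry, led at 151, 213, 218 and 249 TPM in experiment 1 and at 109, 156, 160 and 171 in experiment 2. Mcoln3, Mcoln1 and Mcoln2 encode cation channels of endosomes and lysosomes. Mcoln3 averaged 134 TPM and Mcoln1 50.7, and Mcoln2 lay between 17.6 and 34.2. Orai3, the calcium-activated cation channel Trpm4 and the IP3 receptor Itpr1 averaged 16.7, 16.5 and 12.0 TPM.

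Of the other channel genes 14 of 181 were kept, or 7.73%, against 24.4% of all protein-coding genes. Tmc4, of the transmembrane channel-like family, averaged 158 TPM and Clic1 137. The connexins Gja1 and Gja3, which form gap junctions, averaged 113 and 44.7 TPM. P2rx6, an ATP-gated channel, averaged 104 TPM, but its exons overlap those of the amino acid carrier gene Slc7a4 on the other strand, at 142 TPM, and reads of this pair cannot be told apart without strand. Aqp5, a water channel of gland epithelia, averaged 87.5 ± 34.3 and 54.7 ± 11.3 TPM (SD, n = 4 each).

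Solute carriers had 70 kept of 382 genes, or 18.3%, against 24.4% of all protein-coding genes. The mitochondrial ADP/ATP carriers Slc25a5 and Slc25a4 averaged 871 and 356 TPM and the phosphate carrier Slc25a3 610. Slc39a7, which moves zinc out of the endoplasmic reticulum, averaged 166, and Slc3a2, the heavy chain of amino acid transporters, 130.

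Some epithelial adhesion genes were abundant, while junction genes as a class were not kept more often than others. Of 68 junction genes 17 were kept, a share near the 24.4% of all protein-coding genes. Another 26, or 38.2%, were at 0 TPM in every library, against 32.4% of all protein-coding genes. Epcam, the epithelial adhesion molecule, stood at 818, 698, 938 and 1091 TPM in experiment 1 and at 798, 975, 780 and 992 in experiment 2. The claudins Cldn7, Cldn9, Cldn8, Cldn6 and Cldn3, which seal tight junctions, averaged 270, 154, 142, 139 and 102 TPM. Of 49 keratin genes 3 were kept, or 6.12%. These were the simple-epithelium keratins Krt18 and Krt8 at 240.0 and 168 TPM and Krt10 at 19.1. Krt5 and Krt14, keratins of basal epithelium, had no read.

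Markers of other cell types were low in most libraries, and 1 library stood apart. The summed TPM of 8 fibroblast markers was 1258 in experiment 2 replicate 3 and lay between 0 and 10.3 in the other 7 libraries. In that library Dcn, Lum, Col3a1, Dpt and Col1a2, genes of the connective tissue matrix, stood at 739, 191, 117, 80.1 and 78.1 TPM, and all 5 were at 0 in every library of experiment 1. Of the 8 fibroblast markers none was kept. The same library had the highest macrophage sum, 61.8 TPM, followed by 18.2 in replicate 2 and at most 1.10 in the other 6 libraries. Of the 8 macrophage markers Adgre1 and Mrc1 were at 0 throughout, and the other 6 had signal without being kept. Among these, Lyz2 stood at 42.9 TPM in replicate 3 and 9.82 in replicate 2 of experiment 2. C1qa stood there at 7.75 and 2.55 TPM, and C1qb at 4.94 and 5.86. Without that library 5392 genes were kept, 5335 of them among the 5378.

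The sum of 10 endothelial markers stayed between 0.131 and 2.37 TPM, and Cdh5, Kdr and Flt1 had no read. Cd34, a surface protein known from blood vessel and stem cells, was nonetheless kept at 192, 200, 196 and 183 TPM in experiment 1 and at 266, 256, 255 and 244 in experiment 2. Its SD of log2(TPM + 1) within experiments, 0.05, was the smallest after Pth among the kept genes ranked by spread. The sum of 9 thyroid follicular markers was at most 4.00 TPM. The 8 T cell markers summed to at most 9.44 TPM, and the 7 thymic epithelial markers to at most 23.2 TPM. The thyroid C cell sum of 169 to 427 TPM was nearly all Gfra4. The C cell hormone gene Calca stood at 27.6 TPM in experiment 2 replicate 4, at 2.92 in replicate 3 and at most at 0.254 in the other 6 libraries.

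H2-Ab1, an MHC class II beta chain gene, was kept at 138, 184, 127 and 144 TPM in experiment 1 and at 328, 129, 207 and 137 in experiment 2. The gene of its alpha chain partner, H2-Aa, was at 0 in all libraries of experiment 1 and at 0.237, 6.61, 31.8 and 0 TPM in experiment 2. The 2 genes therefore did not run in parallel in these libraries.

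Proliferation genes split the libraries within each experiment. The 18 cell cycle markers summed to 56.0, 39.7, 30.1 and 664 TPM in experiment 1 and to 323, 42.0, 30.0 and 27.3 in experiment 2. Replicate 4 of experiment 1 and replicate 1 of experiment 2 were thus several times above the others. Cdc20, an activator of mitotic exit, stood at 257 TPM in the former and 20.3 in the latter. Cdk1, the mitotic kinase, stood at 53.6 TPM in the latter, while in experiment 1 replicates 1 and 4 were alike, at 5.41 and 5.22. Mki67, the proliferation antigen gene, stood at 0.736 and 8.40 TPM there and at most at 0.271 in the other 6 libraries. Stmn1, a microtubule regulator named after its values were seen, stood at 33.4, 20.3, 56.1 and 398 TPM in experiment 1 and at 348, 29.2, 35.7 and 51.3 in experiment 2, and was highest in the same 2 libraries. Each library is a pool of 10 to 20 cells, so that more cells with a gene and more RNA per cell cannot be told apart. Cdkn1a, the p21 inhibitor of the cell cycle, stood at 0.213, 0.441, 0.187 and 0.279 TPM in experiment 1 and at 19.2, 79.8, 23.8 and 0.0912 in experiment 2, and was not kept.

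**Figure D4:**
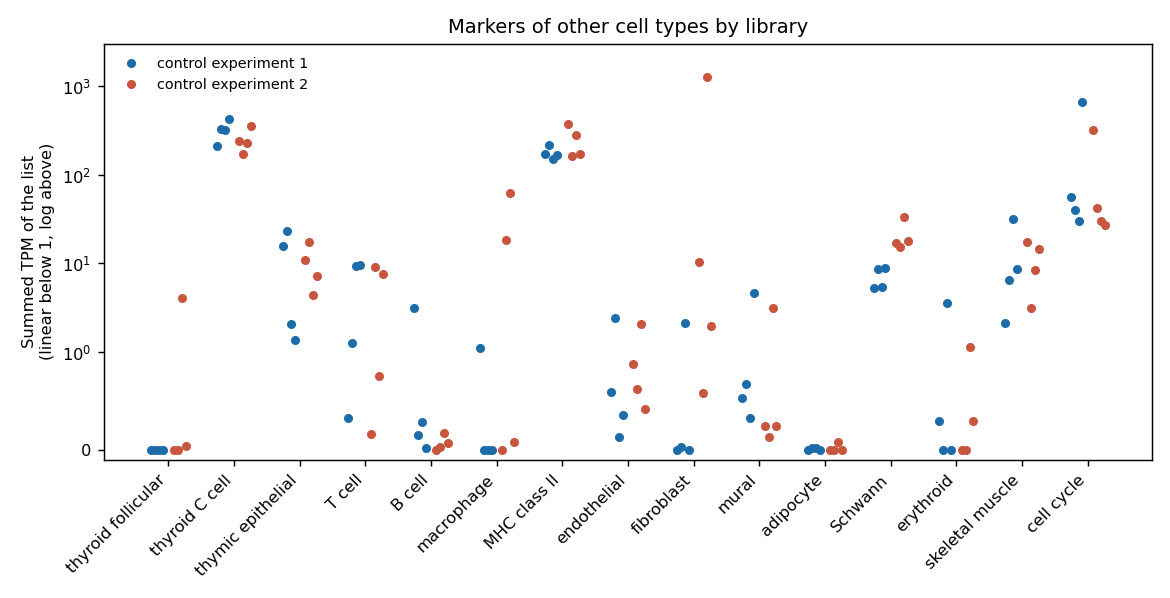
Summed TPM of each marker list for cell types other than the parathyroid cell, 1 point per library, on an axis that is linear below 1 and logarithmic above. Blue is control experiment 1 and orange is control experiment 2. The fibroblast sum of 1258 TPM in 1 library and the cell cycle sums of 664 and 323 TPM stand apart from the other libraries of their experiments.

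The spread between libraries of 1 experiment was modest for most kept genes. Its median SD of log2(TPM + 1) was 0.39, and it fell with abundance, from 0.45 for genes of 10 to 100 TPM to 0.14 for those of 1000 to 10000. The correlation of log2(TPM + 1) between 2 libraries of an experiment, taken across the 5378 kept genes, lay between 0.893 and 0.913 in experiment 1 and between 0.890 and 0.916 in experiment 2. These are correlations across genes, which are not independent replicates. Of the kept genes 3990 reached 10 TPM in every library, and 34 were at 0 in at least 1. Apart from genes with Gm or Rik symbols, the 10 steadiest were Pth, Cd34, Gstp1, Cox6b1, Ndufb7, Atp5g1, Ubb, Chga, Cox4i1 and Lamtor2. Of these, 4 serve the respiratory chain or ATP synthase, with means of 643 to 1733 TPM. Because spread fell with abundance, the count alone does not set such genes apart. Whether they were steadier than other genes of like abundance was not tested.

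At the other end stood genes that switched between high and near 0 among libraries. Serpinb12, an epithelial serpin, stood at 188, 103, 0.477 and 85.6 TPM in experiment 1 and at 0.0709, 0.160, 0.106 and 83.5 in experiment 2. It was at 83.5 TPM or more in 4 libraries and at 0.477 or less in the other 4. Fos, an immediate-early gene that rises within minutes of stimulation, stood at 3.93, 141, 111 and 12.6 TPM and at 34.5, 9.59, 172 and 0.251. Egr1, another immediate-early gene, stood at 34.0, 37.5, 1.46 and 1.87 TPM and at 12.2, 9.23, 50.3 and 0.0562. Both were highest in replicate 3 and lowest in replicate 4 of experiment 2, while in experiment 1 the order of the libraries differed between them. Birc5, Cnfn, Dbndd2, Mt2, Trmt112-ps2, Rps12-ps3 and Rpl31-ps8 made up the rest of the 10 most variable kept genes without Gm or Rik symbols. Trmt112-ps2 and Rpl31-ps8 are annotated as pseudogenes and Rps12-ps3 as protein-coding. Mt2, a metallothionein, ranged from 0 to 110 TPM. Tnmd, the tenomodulin gene, named after its values were seen, combined a high mean of 1718 TPM with a wide range, from 601 to 3225 TPM.

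**Figure D5:**
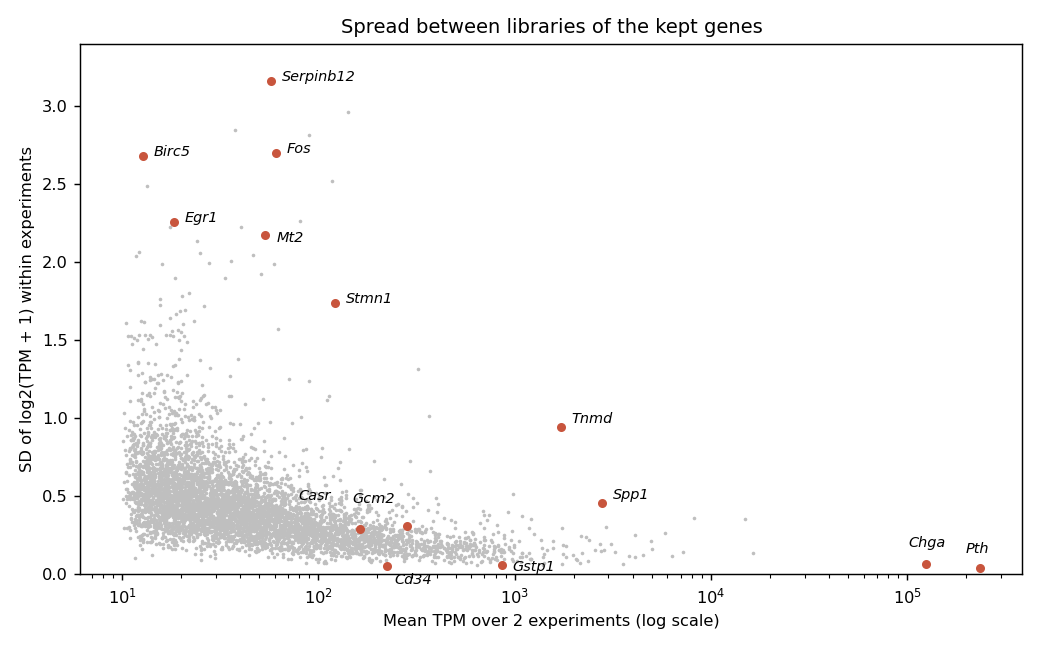
SD of log2(TPM + 1) within experiments against mean TPM (log scale) for the 5378 kept genes, with named genes in orange. Pth and Chga lie at the lower right with SDs of 0.04 and 0.07, and Serpinb12 at the top with 3.16.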

How the data were processed

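RNA of hand-picked cells was sequenced after SMART-Seq HT cDNA synthesis, per the labels' protocols. The submitters' processing notes name Salmon and the build GRCm39. Which Salmon version, annotation and strand setting the authors used is not given in the sources used here. For each transcript the authors deposited a TPM value and an expected count of reads, per the file headers, and lengths. The lengths served to express the floor of reads, given above for Chgb, in TPM.

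Of 116747 transcripts 115685 matched a gene by identifier in GENCODE release M21, which describes GRCm38. The other 1062 held 0.466% of reads. Release M21 supplied the gene of each transcript, names, types and the exon positions behind the overlaps named above. TPM and expected counts were summed per gene. The tables hold 21743 protein-coding genes but 32 of 5854 genes annotated as lincRNA, so most long noncoding RNAs are not analysed here. Depth was 29471254 to 32264864 reads per library in experiment 1 and 10742058 to 13731015 in experiment 2, and 12419 to 13429 genes had at least 1 read. There were no molecular identifiers, so the floor of 3 reads covers counting error only.

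TPM was averaged within an experiment, then over both. Tests were exact sign-flip permutation tests of log2(TPM + 1) differences between genes of the same library (Python 3.11.15, numpy 2.4.6, pandas 2.3.3, scipy 1.17.1), checked on simulated data. Such a test covers the spread between these libraries, which may be partly technical since the animals behind the replicates are not named, and not any bias of the quantification that all libraries share. No count model was fitted. The lowest chi-square per degree of freedom between libraries of an experiment was 61.6, so none was counted as a duplicate.

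Named were the top 25 genes outside the mitochondrial and ribosomal groups and members of 7 role lists and 16 marker lists. The 8 most abundant kept genes of each class and the 10 most and 10 least variable kept genes were named too. Genes with symbols of Gm and a number, or ending in Rik, were left out of the ranking by variability. Exceptions are stated where they occur, and Angptl4 and Zfp512 mark the threshold. Members, lists and pairs were chosen with earlier results of these data known. Classes were drawn by gene symbol, and 16 genes that matched by name only were removed after being seen. The listed name Auf1 had no match as a symbol, but its gene, Hnrnpd, was in the same list and was matched. Some genes that these rules name are counted in their lists and classes but are not reported here by name.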

Additional observations from a re-analysis of the deposited data

Results flagged for a closer look

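Among 328 groups of 4 libraries (named genes and marker sums within an experiment), 37 had 1 library far from the other 3 by Dixon's criterion. For independent groups of normally distributed values the criterion flags about 1 in 20, which would be 16.4 of 328. These groups do not meet those conditions. TPM was used without log transformation and need not be normal. Some genes were named for their spread or after their values were seen, and some marker genes count both singly and in a sum. The 37 therefore cannot be set against 16.4 as a chance rate. No explanation of any of these values was tested.

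Replicate 3 of experiment 2 stood high for the fibroblast markers (sum 1258 TPM, the other 3 libraries 0.576 to 10.3), with Dcn at 739, Lum at 191, Col3a1 at 117, Dpt at 80.1 and Col1a2 at 78.1 TPM. It was also high for the Schwann cell sum (33.0 TPM), Dynll1 (167), Gpr89 (22.8) and Angptl4, which stood at 27.9 TPM against 3.17 to 4.91 in the other 3 libraries, and low for Tspan6 (2369). Angptl4 therefore reached the threshold in experiment 2 through that library.

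Replicate 4 of experiment 1 stood high for the cell cycle sum (664 TPM, the others 30.1 to 56.0), Cdc20 (257), Stmn1 (398), Birc5 (61.6), Pla2g7 (3252) and Uqcr11 (2467), and low for Xbp1 (80.9) and Vamp4 (12.4). Replicate 1 of experiment 2 stood high for the cell cycle sum (323 TPM, the others 27.3 to 42.0), Stmn1 (348), Cdk1 (53.6), Birc5 (37.2), Cdc20 (20.3), Pax9 (106) and Gstp1 (906).

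Replicate 4 of experiment 2 stood high for Serpinb12 (83.5 TPM), Calca (27.6) and Esrrg (139), and low for Krt8 (122). Replicate 2 of experiment 1 stood high for Gata3 (176) and Kcng4 (79.1) and low for Stxbp2 (86.7). Replicate 3 of experiment 1 stood high for Tnmd (3225), Nr3c1 (19.4) and the fibroblast sum (2.13), and replicate 1 for the macrophage sum (1.10, the other 3 at 0). Transcripts without a gene match, outside all comparisons, held 0.466% of reads on average.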

How the results depend on the processing

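The count of kept genes, 5378, stayed within 1.5 times under every alternative run: 5315 to 5392 with 1 library left out, 5273 with medians, 4821 over protein-coding transcripts, 7084 and 3701 at thresholds of 5 and 20 TPM, 3990 at 10 TPM in every library, 5298 with protein-coding genes only, and 6729 after rescaling TPM to the genes other than Pth, Chga and the mitochondrial ones. That rescaling multiplies each gene by 1.69 to 1.78, depending on the library, by its own construction, and put Pth at 405586, Chga at 217380, Casr at 284 and Gcm2 at 491 TPM. It left the order of genes within a library and the calls of all 19 pairs as they were. Because of the pseudocount some pair differences changed in size, such as Arrb1 minus Arrb2 from -2.27 to -2.86. The 16 called pairs fell to 0 in experiment 1 alone and to 0 in experiment 2 alone, where 4 libraries allow no p below 0.125, and to 0 with the median in place of the mean, where the adjusted p was 0.0742 for each. Direction was kept in all 16. For Cyp24a1 and Cyp27b1, both near 0 and not called, the difference of -0.14 turned to 0.0064 in experiment 1 alone. With 1 library left out it was 0.0036 without replicate 4 of experiment 2 and -0.165 to -0.161 without any other library. The difference below 0 therefore rested on that replicate, and why that replicate differed was not tested. Pairs with 1 library left out, over protein-coding transcripts or with a pseudocount of 0.1 changed no other call. The count over protein-coding transcripts was extended to single named genes after seeing the data. There 19 of 199 moved by more than 1 SD, and the text gives the value of each gene above 1 TPM that moved over 1.5 times, apart from annotated pseudogenes, which have no such transcript. With 1 library left out, 9 of 138 named kept genes fell below 10 TPM in an experiment: Cnfn, Dbndd2 and Stxbp3 without replicate 1 of experiment 1, Birc5 without replicate 4 of experiment 1 (mean 12.7 to 5.02 TPM) or replicate 1 of experiment 2 (8.19), Nr3c1 without the latter, Angptl4, Cnfn and Egr1 without replicate 3 of experiment 2, and Rxrb and Serpinb12 without replicate 4 of experiment 2. Stmn1 fell from 122 to 76.3 TPM without replicate 4 of experiment 1. Without single libraries Zfp512 and Ccnd1 reached the threshold. Of genes not kept, Dcn fell from 92.7 to 0.431 TPM without replicate 3 of experiment 2, and Cdkn1a from 15.5 to 7.32 without replicate 2. No paired analysis was possible because no groups were compared, so that replicate numbers pair no samples, and the genes of a pair were tested within each library. Depth limits low genes to a floor of 3 reads.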
